A study of Mus musculus with 58 samples.

Results

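The aryl hydrocarbon receptor (AhR) system is described here by 5 genes of the 20018 named on the array: the receptor Ahr, its dimer partners Arnt and Arnt2, and the feedback repressors Ahrr and Tiparp. They were chosen by their place in the pathway, with earlier results of these data known. Every probe whose transcript accession belongs to them was taken, which gave 9 of 55681 probes, 1 for Arnt2 and 2 for each of the others. RNA from the lung, liver and forestomach of male Muta™Mouse, a transgenic reporter strain aged about 13 weeks, was measured on 58 two-colour arrays, 1 per mouse and tissue. All mice were gavaged daily for 28 days, the controls with olive oil alone and the exposed groups with indeno(123,cd)pyrene (IP), a polycyclic aromatic hydrocarbon, dissolved in that oil, at daily doses of 12.5, 25 or 50 mg/kg-bw, and tissue was taken 72 h after the last dose. Samples were labelled with Cy5 and hybridised together with a Cy3-labelled universal reference, RNA of 11 mouse cell lines, so that each value below is a log2 ratio of sample over reference and is compared only within a probe. Every exposed group held 5 mice per tissue. The vehicle group held 4 mice in liver and forestomach and 5 in lung, where mouse 4 has no liver or forestomach array here, although the study's methods give 4 vehicle mice.

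AhR is a ligand-activated transcription factor that waits in the cytoplasm in a complex with heat shock chaperones. When a planar aromatic compound binds, AhR enters the nucleus, pairs with ARNT and binds response elements with the core GCGTG, which switches on genes of xenobiotic metabolism such as those of the CYP1 family. AHRR competes with AhR for ARNT and for the response element, and TIPARP is an ADP-ribosyltransferase that modifies AhR and speeds its loss, so that both close a negative feedback loop. ARNT2 is a close relative of ARNT known mainly from neurons and kidney.

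The 250 bases before 1 listed start site per gene were searched for the response element core. Windows from the RefSeq table of build GRCm38.p6 were listed for 4 of the 5 genes, all but Ahr. For Arnt and Arnt2 the listed start lies inside the gene's whole span, so that the Arnt2 window lies wholly within the gene and the end of the Arnt window overlaps it, and the bases before their outermost starts were not searched in full. GCGTG or its complement CACGC, searched on both strands, occurred 3 times in the Ahrr window, on the gene's own strand from 107, 82 and 27 bases before the start. It occurred 1 time in the Arnt window, from 29 bases before the start, and 1 time in the Tiparp window, on the opposite strand from 170 bases before the start, and was not found in the Arnt2 window. Of 32851 windows of the same length, 28.2% held at least 1 such match and 2.77% held at least 3. The windows of both repressors and of Arnt are printed from 5′ to 3′ on the gene's strand, with the matches in capitals, because Ahrr is the member that rose with IP, and the others hold fewer matches. Ahrr lies at chr13:74211118-74292331, Tiparp at chr3:65528447-65555518, Arnt at chr3:95434367-95497240, Arnt2 at chr7:84246274-84411741 and Ahr at chr12:35497979-35534989. A match is a description of the letters and not a bound site.
Ahrr, chr13:74292332-74292581, minus strand: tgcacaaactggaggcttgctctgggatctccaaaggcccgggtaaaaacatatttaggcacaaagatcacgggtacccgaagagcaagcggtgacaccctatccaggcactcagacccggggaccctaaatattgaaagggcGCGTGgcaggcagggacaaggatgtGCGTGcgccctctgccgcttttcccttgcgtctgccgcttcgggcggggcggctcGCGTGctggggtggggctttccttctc
Tiparp, chr3:65528197-65528446, plus strand: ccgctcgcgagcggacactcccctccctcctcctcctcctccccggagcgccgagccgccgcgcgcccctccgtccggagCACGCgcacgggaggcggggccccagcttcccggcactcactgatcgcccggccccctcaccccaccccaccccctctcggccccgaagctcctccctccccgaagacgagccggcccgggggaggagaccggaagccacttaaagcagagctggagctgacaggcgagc
Arnt, chr3:95434140-95434389, plus strand: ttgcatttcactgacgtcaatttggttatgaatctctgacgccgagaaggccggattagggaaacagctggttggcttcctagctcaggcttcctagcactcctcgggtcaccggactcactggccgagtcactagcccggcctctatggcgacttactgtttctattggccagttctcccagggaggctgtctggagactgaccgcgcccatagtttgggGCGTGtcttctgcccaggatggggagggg

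Signal over background limited the members unequally. The brighter probes of Ahr, Arnt and Tiparp were well above background in Cy5 on all 58 arrays, that of Ahrr on 43, and the Arnt2 probe on 2. Between 37.6 and 90.7% of all probes were well above background per array, and 11 arrays stood apart with a high share. They were 4 in lung (83.8 to 90.7%, the others at most 70.4%), all on the slide of mice 3, 8, 13 and 18, 5 in liver (mice 9, 13, 15, 16 and 20, 66.6 to 78.9% against at most 45%) and 2 in forestomach (mice 8 and 18, 81.2 to 85.9% against at most 58.9%). Lung and forestomach arrays shared 5 slides, and each lung slide held every dose group. Liver arrays lay on 3 other slides and were read with another version of the scanner software, so that tissue, slide and software cannot be told apart in comparisons with liver. Markers of lung epithelium, hepatocytes and squamous epithelium were high in their own tissues, while the forestomach samples also carried glandular stomach markers at mean log2 ratios of 0.80 to 6.34 in vehicle mice.

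Which members responded to IP in which tissue was tested with limma in 1 fit of the 4 groups per tissue, where a call needed an adjusted p of at most 0.05 together with a change of at least 1.5-fold. Of 45 comparisons of a member gene at a dose with vehicle, 1 passed both thresholds: Ahrr rose 5.65-fold in the lung at 50 mg/kg-bw/day. From the lowest to the highest dose, 0, 0.0126 and 0.079% of all probes passed both in lung. In liver and forestomach the share was 0% at every dose. The 45 include the comparisons of Arnt2, which was well above background on only 2 of 58 arrays. Over all 9 probes, 8 of 81 comparisons had an unadjusted p under 0.05, where, from the lowest to the highest dose, the share of all probes was 3.92, 6.53 and 8.8% for lung, 2.6, 4.44 and 6.87% for liver, and for forestomach 4.12, 3.6 and 3.89%, and none of the 54 steps between neighbouring doses passed. In these bulk samples fewer cells of a type and less RNA per cell cannot be told apart, for this and every other level given.

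**Figure D1:**
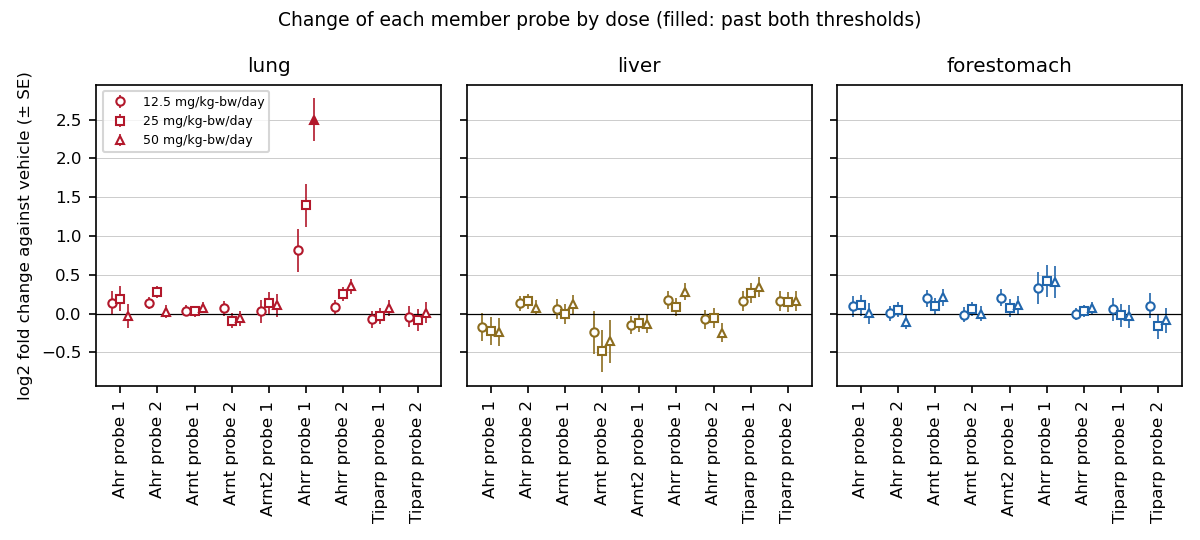
Log2 fold change against vehicle with its standard error (vertical axis) for each of the 9 member probes (horizontal axis) at 3 doses in each tissue, from the limma fit per tissue. Probe 1 is the brighter one, and the only filled symbol, past both thresholds, is the brighter Ahrr probe in lung at 50 mg/kg-bw/day, at 2.50.

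Ahr, the receptor itself, did not pass the test at any dose in any tissue. In the lung of vehicle mice 1 to 5 the log2 ratios of the brighter probe were 1.94, 1.70, 1.63, 1.49 and 2.10, and at 50 mg/kg-bw/day, mice 16 to 20, they were 1.78, 1.83, 1.77, 1.96 and 1.34. The lowest value belonged to mouse 20 and the groups overlapped. The log2 fold change was −0.04 (SE 0.16, limma adjusted p = 0.985), after 0.13 and 0.19 at the lower doses. Liver values were 0.68, 0.73, 0.91 and 1.01 in vehicle mice 1, 2, 3 and 5 and 0.41, 1.16, 0.72, 0.45 and 0.23 at 50 mg/kg-bw/day, with 4 of 5 exposed mice under the vehicle mean. Within each of the 3 liver slides the mean of the exposed mice at that dose was below the vehicle mean, by −0.33 to −0.29. Not every mouse was lower, since mouse 17 (1.16) exceeded the vehicle mouse of its slide, mouse 5 (1.01). The liver difference was −0.24 (SE 0.18, limma adjusted p = 0.776), 0.33 with median-centred arrays, and the exposed mice spread more widely than the controls, with an SD of 0.36 against 0.15. In forestomach, vehicle values of −0.42, −0.26, −0.39 and −0.17 stood against −0.68, −0.22, −0.23, −0.17 and −0.25, a difference of 0.00 (SE 0.14). The dimmer Ahr probe was well above background on 15 lung arrays and on none elsewhere. On it, all 5 lung mice at 25 mg/kg-bw/day (0.31 to 0.65) lay above all vehicle mice (−0.02 to 0.30), a separation seen for 0.949% of all probes at that dose, but the difference of 0.28 had a limma adjusted p of 0.332 and was back to 0.02 at 50 mg/kg-bw/day.

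Arnt, the obligate partner of AhR and also of the hypoxia-inducible factors, did not pass the test at any dose either. Its brighter probe read 0.13, 0.13, 0.02, 0.16 and 0.25 in lung vehicle mice 1 to 5 and 0.12, 0.23, 0.42, 0.22 and 0.08 at 50 mg/kg-bw/day. These groups overlapped, with a difference of 0.07 (SE 0.07, limma adjusted p = 0.877). In liver the vehicle mice had −0.12, −0.03, −0.21 and 0.09, and the exposed mice 0.06, 0.19, 0.24, 0.17 and −0.40, where mouse 20 stood below the rest. The liver difference was 0.12 (SE 0.13, limma adjusted p = 0.823). In forestomach, values of −0.42, −0.44, −0.35 and −0.48 in vehicle mice lay below all 5 values at 50 mg/kg-bw/day, which were −0.20, −0.18, −0.08, −0.27 and −0.34. Such a separation was found for 0.891% of all probes in that comparison. The exact permutation test gave p = 0.0159, the smallest value that 4 against 5 mice allow, and the difference of 0.21 (SE 0.11) had a limma adjusted p of 1.00, while the second Arnt probe gave −0.00.

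The second Arnt probe was lower on the liver arrays with a high share of probes above background, but not on such arrays of the other tissues. Its log2 ratio was −1.30, −0.71, −1.73, −1.14 and −1.51 in mice 9, 13, 15, 16 and 20, the liver arrays with the high share of probes above background, and between −0.61 and −0.21 in the other 14 liver arrays. In lung the arrays with a high share had −0.41 to −0.25 and the others −0.82 to −0.38. In forestomach they had −0.35 to −0.29, within the −0.60 to −0.08 of the others. At 25 mg/kg-bw/day all 5 liver values (−1.73 to −0.55) lay below all vehicle values (−0.43 to −0.21), as did 1.24% of all probes, with a difference of −0.48 (SE 0.27, limma adjusted p = 0.904). The liver mice of that dose on arrays without the high share, at −0.61 to −0.55, were also below all vehicle values. The part of the share of probes above background in this difference was not tested. Arnt2 was well above background in the lungs of mice 3 and 8 alone, both on the slide with the high share, and was not well above background on any liver or forestomach array, so no change of it can be given. Its values across the 58 arrays ran from −0.84 to 0.11.

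**Figure D2:**
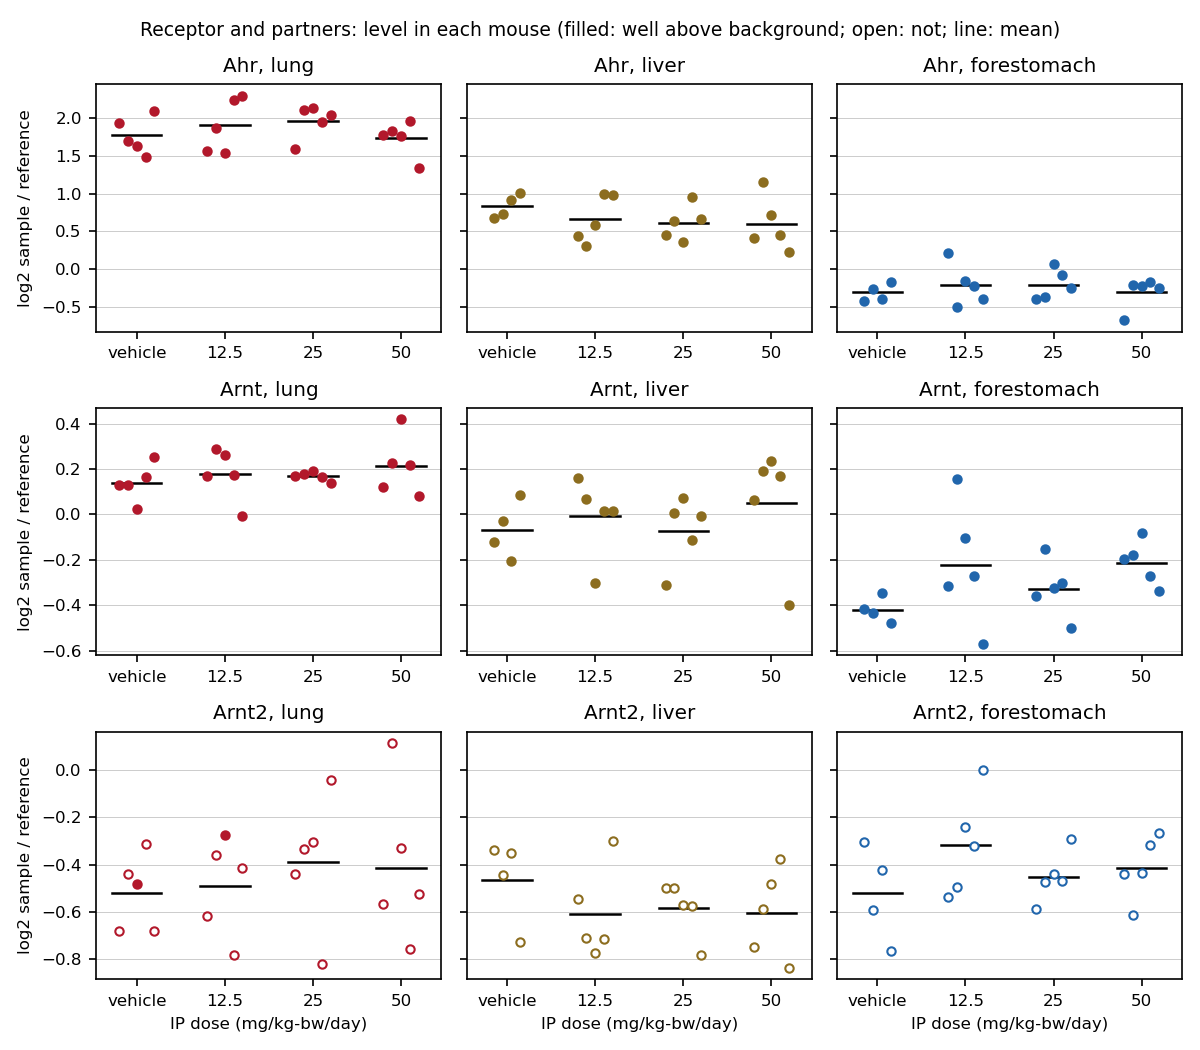
Log2 ratio of sample over reference (vertical axis) of Ahr, Arnt and Arnt2, brightest probe, for each mouse by dose (horizontal axis) and tissue. Filled points are well above background, open points are not, and lines are group means. Ahr and Arnt groups overlap at nearly every dose, all 5 forestomach Arnt values at 50 mg/kg-bw/day lie above the vehicle values, and nearly all Arnt2 points are open.

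Ahrr, which competes with AhR for ARNT, was the member that rose. In the lung its brighter probe read −0.83, −0.54, −0.25, −0.65 and −0.54 in vehicle mice 1 to 5, with 3 of the 5 arrays well above background. At 12.5 mg/kg-bw/day mice 6 to 10 had 0.12, 0.55, 0.11, 0.17 and 0.32, and at 25 mg/kg-bw/day mice 11 to 15 had 1.60, 0.34, 0.58, 1.17 and 0.47. Every exposed array was well above background. At 50 mg/kg-bw/day mice 16 to 20 had 1.59, 0.94, 2.49, 1.77 and 2.89. All mice of each dose lay above all vehicle mice, a separation shown by 0.42, 0.949 and 1.26% of all probes at the 3 doses, while neighbouring doses overlapped from 12.5 mg/kg-bw/day on. Group means went from −0.56 ± 0.21 (SD, n = 5) in vehicle mice to 0.25 ± 0.19, 0.83 ± 0.53 and 1.94 ± 0.77, with the widest spread between mice at the highest dose.

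The log2 fold change of Ahrr in lung was 0.81 (SE 0.28, limma adjusted p = 1.00) at the lowest dose, 1.39 (SE 0.28, limma adjusted p = 0.0899) at the middle dose and 2.50 (SE 0.28, limma adjusted p = 0.000359) at the highest. Over all probes, 0, 0.0126 and 0.079% passed both thresholds at these doses, and 2184 probes (3.92%) had an unadjusted p under 0.05 at the lowest. The exact permutation test at 50 mg/kg-bw/day gave p = 0.00794, the smallest that 5 against 5 mice allow, with all 5 mice above the vehicle mean. With slide as a block the change at 25 mg/kg-bw/day also passed both thresholds (limma adjusted p = 0.0304), as it did without mouse 17 (0.046) or mouse 20 (0.0454) of the highest dose. Within each of the 5 slides the mouse at 50 mg/kg-bw/day exceeded the vehicle mouse, by 1.48 to 3.54. The steps of 0.58 from 12.5 to 25 and 1.10 from 25 to 50 mg/kg-bw/day did not pass, nor did any other probe. The dimmer Ahrr probe, well above background on 2 lung arrays, differed by 0.35 (SE 0.09, limma adjusted p = 0.148) at 50 mg/kg-bw/day. The rise at 50 mg/kg-bw/day passed under every alternative. It was 1.42 with the mean of both probes, which takes in the dimmer one, and 4.10 with the scanner software's log ratio. Over the 4 B cell markers, all above background on every lung array, the mean log2 ratio was −0.16 to 1.31 in vehicle mice and 1.33 to 1.75 at 50 mg/kg-bw/day. The 3 brown fat markers, of which 1 to 3 were above background, had a mean of 0.75 to 3.18 against 0.41 to 1.02. Heart muscle markers ranged from 2.23 to 4.95 in vehicle mice and −0.14 to 3.56 at 50 mg/kg-bw/day, fat cell markers from 0.58 to 3.58 and 0.50 to 1.33, and mesothelium markers from 0.10 to 0.99 and −1.07 to 0.83. The part of these cells in the Ahrr result was not tested.

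In liver Ahrr was not well above background in any vehicle mouse, at −0.56, −0.38, −0.34 and −0.52. At 50 mg/kg-bw/day the values were −0.21, −0.14, 0.10, −0.07 and −0.52, with mice 16, 18 and 20 well above background, and of the 6 liver arrays above background at any dose 5 were those with the high share of probes above background. The mean Cy5 signal at 50 mg/kg-bw/day was 1.14-fold that of vehicle mice, a ratio of group means near background that was not tested. The fitted difference of 0.28 had a limma adjusted p of 0.718. Over the alternatives it ran from 0.017 to 2.39 and did not pass. Forestomach Ahrr was well above background on all 19 arrays, at 0.38, 0.18, −0.05 and 0.09 in vehicle mice and 0.95, 0.44, 0.52, 0.30 and 0.56 at 50 mg/kg-bw/day. All 5 exposed mice lay above the vehicle mean, but mouse 19 overlapped the vehicle range. The forestomach differences were 0.32, 0.42 and 0.40 (SE 0.20 at each dose) across the doses, with a limma adjusted p of 1.00 and an exact permutation p = 0.0317 at the highest. At that dose the 4 spermatid markers also stood apart in forestomach, at 0.76 to 4.06 against −0.28 to 0.51 in vehicle mice, and the part of foreign tissue in the Ahrr values was not tested.

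The Ahrr response was larger in lung than in the other tissues when the difference itself was tested. In a joint limma fit of all 58 arrays the effect at 50 mg/kg-bw/day was larger than in liver by 2.22 on the log2 scale (SE 0.32, limma adjusted p = 0.000174). Against forestomach it was larger by 2.10 (SE 0.32, limma adjusted p = 0.000696). Of all probes, 0.0162 and 0.0144% passed in these comparisons, where the threshold was the adjusted p alone, and Ahrr was the 1 member among them. Forestomach and liver effects differed by 0.12 (SE 0.33, limma adjusted p = 0.969), where 0.00359% of probes passed. The difference from liver was 1.72 when the log ratio of the scanner software was used, and did not pass (limma adjusted p = 0.678). The difference from forestomach was 3.46 with that ratio and 1.19 with the mean of both probes, which also gave 1.41 for liver, all past the threshold.

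Tiparp, the ADP-ribosyltransferase, did not follow Ahrr. Lung values of the brighter probe were −0.70, −0.33, −0.56, −0.62 and −0.81 in vehicle mice and −0.69, −0.67, −0.43, −0.68 and −0.17 at 50 mg/kg-bw/day. Mouse 20, which had the highest Ahrr value, also had the highest Tiparp value, and the other exposed mice lay within the vehicle range. The log2 fold changes in lung were −0.08, −0.03 and 0.07 (SE 0.10, limma adjusted p = 0.939 at the highest dose) and 0.01 on the second probe, also above background on all arrays. In liver, vehicle mice had −2.74, −2.57, −2.48 and −2.74 and mice at 50 mg/kg-bw/day −2.73, −2.15, −2.05, −2.16 and −2.36, so that 4 of 5 exceeded every vehicle mouse and mouse 16 did not. The liver differences were 0.16, 0.26 and 0.34 (SE 0.13) across the doses, and at the highest the limma adjusted p was 0.715 and the exact permutation p was 0.0556. The second probe gave 0.16 at that dose. In forestomach, values of −1.67, −1.29, −1.51 and −1.66 stood against −1.70, −1.35, −1.56, −1.54 and −1.67, a difference of −0.04 (SE 0.15). The Tiparp effect at 50 mg/kg-bw/day did not pass in any difference between tissues, of which the widest was −0.38 (SE 0.19, limma adjusted p = 0.809) for forestomach minus liver.

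**Figure D3:**
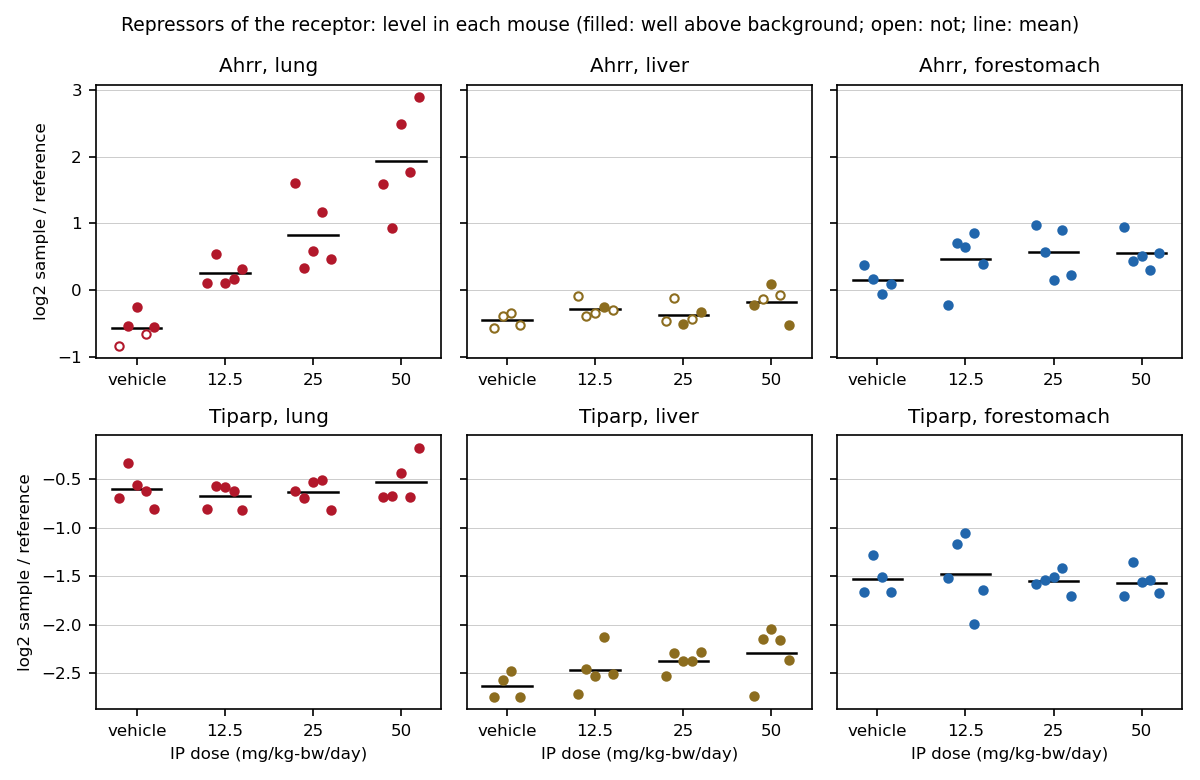
Log2 ratio of sample over reference (vertical axis) of Ahrr and Tiparp, brightest probe, for each mouse by dose (horizontal axis) and tissue. Filled points are well above background, open points are not, and lines are group means. Lung Ahrr means go from −0.56 in vehicle mice to 1.94 at 50 mg/kg-bw/day with no exposed mouse in the vehicle range, while lung Tiparp stays between −0.82 and −0.17.

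How the members are set in unexposed tissue was read from the vehicle mice in the joint limma fit. The share of all probes without overlap between tissues was not counted, so a lack of overlap here or below is only a description. On its brighter probe Ahr was highest in lung, at 1.77 ± 0.25 (SD, n = 5), then liver at 0.83 ± 0.15 (n = 4) and forestomach at −0.31 ± 0.12 (n = 4), with no overlap between any 2 tissues. Lung exceeded liver by 0.94 (SE 0.17, limma adjusted p = 5.88e-06), which is 1.92-fold, and forestomach by 2.08 (SE 0.17, limma adjusted p = 4.17e-15), which is 4.24-fold. Forestomach was below liver by −1.15 (SE 0.18, limma adjusted p = 3.77e-07). The dimmer Ahr probe, not well above background in liver or forestomach, overlapped between all tissues. It gave 0.23 for lung minus liver, 0.20 for lung minus forestomach and 0.03 for forestomach minus liver, none past both thresholds. Lung minus forestomach passed under every alternative and was 1.14 with the mean of both probes and 2.63 with median-centred arrays. With the mean of both probes lung minus liver was 0.58 and forestomach minus liver −0.56, both under the fold limit. That mean takes in the dimmer probe, so its smaller differences follow from the values of that probe. The liver differences also depended on the scaling. With median-centred arrays lung minus liver was 1.93 and forestomach minus liver −0.71 (limma adjusted p = 0.204).

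Tiparp had another order, lung at −0.60 ± 0.18, forestomach at −1.53 ± 0.18 and liver at −2.63 ± 0.13, and here neither probe overlapped between tissues. Lung exceeded liver by 2.03 (SE 0.13, limma adjusted p = 4.09e-19) and forestomach by 0.93 (SE 0.13, limma adjusted p = 7.54e-08), and forestomach exceeded liver by 1.10 (SE 0.14, limma adjusted p = 2.55e-09). The second probe gave 2.27, 0.88 and 1.39, and all 3 differences passed under every alternative, with the largest values from median-centred arrays, 3.06 for lung minus liver and 1.54 for lung minus forestomach. Arnt ran from 0.14 ± 0.08 in lung over −0.07 ± 0.13 in liver to −0.42 ± 0.05 in forestomach. Lung exceeded liver by 0.21 (SE 0.10, limma adjusted p = 0.119), which did not pass, and the values of these tissues overlapped. The forestomach was lower than lung by 1.47-fold (limma adjusted p = 1.73e-05), just under the fold limit. With median-centred arrays Arnt in lung passed both thresholds against liver (1.28) and forestomach (1.19). Against forestomach it also passed without mouse 3 (0.61) and without the arrays that stood apart (0.59), and was 0.20 with the mean of both probes, which did not pass. With Cy5 alone it passed against liver (0.66), and the second Arnt probe overlapped between all tissues, and forestomach minus liver was 0.094 with median-centred arrays and 0.18 with Cy5 alone in place of −0.35, so that the order of Arnt across tissues rests on the probe and the scaling.

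Vehicle Ahrr was highest in forestomach, at 0.15 ± 0.18 with all 4 arrays well above background. Lung was lower by −0.71 (SE 0.23, limma adjusted p = 0.0134), and no lung vehicle mouse reached the forestomach range. That difference was −0.40 with median-centred arrays, −0.38 with the mean of both probes and −0.57 without mouse 1, and did not pass in these, and it was −1.92 with the scanner ratio. In liver no vehicle array was well above background, and the mean Cy5 signal of forestomach was 1.38-fold that of liver. The fitted 0.60 for forestomach minus liver had a limma adjusted p of 0.0556, and passed with mouse as a replicate block (0.0486), with dim probes left out (0.0402), and without mouse 6, 11, 17 or 20 (0.0335 to 0.0475). With the scanner ratio it was 3.04 and passed (limma adjusted p = 3.84e-07). Lung and liver, both near background, overlapped, with a difference of −0.11 that was 1.12 and passed with the scanner ratio (limma adjusted p = 0.0394). Of the 5 members, 2 passed for lung against liver, 3 for lung against forestomach and 2 for forestomach against liver, where 26.9, 19.5 and 22.7% of all probes passed.

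**Figure D4:**
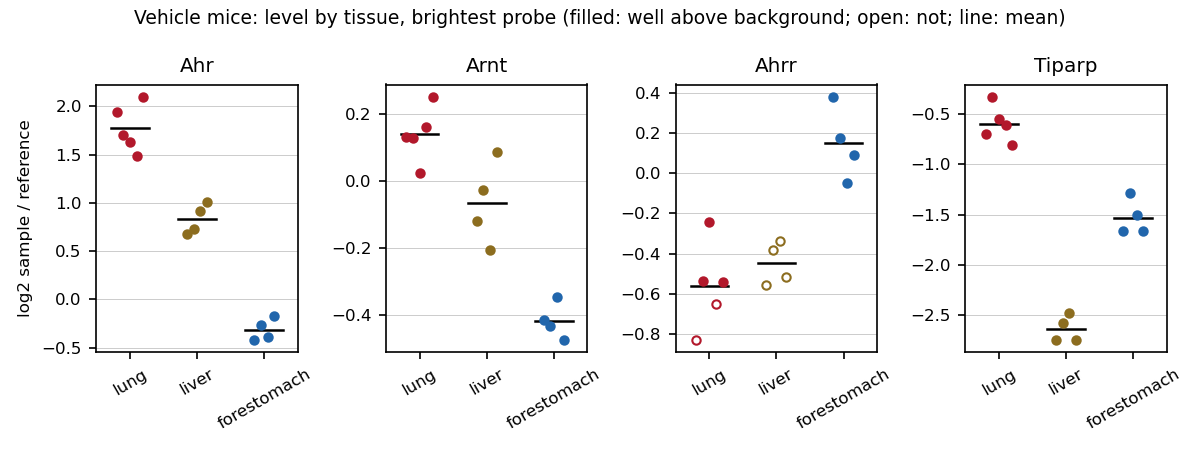
Log2 ratio of sample over reference (vertical axis, 1 scale per gene) in vehicle mice by tissue (horizontal axis) for the brightest probes of Ahr, Arnt, Ahrr and Tiparp. Filled points are well above background, open points are not, and lines are means. Ahr and Tiparp separate all 3 tissues, with lung highest at 1.77 and −0.60, and Ahrr is highest in forestomach at 0.15.

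Whether mice of the same dose varied together in the repressors and in 2 CYP1 target genes was tested in lung on deviations from the dose means, in 5 relations over 20 mice with 100000 permutations within dose groups, two-sided. Ahrr and Cyp1b1 deviated together, with r = 0.83 (permutation p = 0.00087, adjusted 0.00435) and rho = 0.79 (permutation p = 0.00298). Without the 2 mice farthest from the median of Ahrr r was 0.73, and with slide means also removed it was 0.85. Ahrr and Tiparp had r = 0.61 (permutation p = 0.0176, adjusted 0.037) and rho = 0.58 (permutation p = 0.0215), with 0.42 without the 2 farthest mice and 0.73 with slide means removed. Tiparp and Cyp1b1 had r = 0.62 (permutation p = 0.0222, adjusted 0.037) and rho = 0.57 (permutation p = 0.0255), with 0.66 without the 2 farthest mice and 0.63 with slide means removed. Both Tiparp relations lost the threshold without any 1 of several mice: in 9 of 20 cases with Ahrr and in 10 of 20 with Cyp1b1, where r was 0.43 and 0.44 without mouse 20. Ahrr and Cyp1a1 had r = 0.29 (permutation p = 0.265, adjusted 0.304) and rho = 0.22 (permutation p = 0.401), and 0.43 without the 2 farthest mice. Tiparp and Cyp1a1 had r = 0.24 (permutation p = 0.304, adjusted 0.304) and rho = 0.36 (permutation p = 0.141), and 0.39 without them. With slide means removed these became 0.66 (adjusted permutation p = 0.00645) and 0.51 (0.0191). The permutations kept the dose groups but not the slides, so that p-values after removal of slide means can come out too small. No conclusion on Cyp1a1 is drawn from them.

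**Figure D5:**
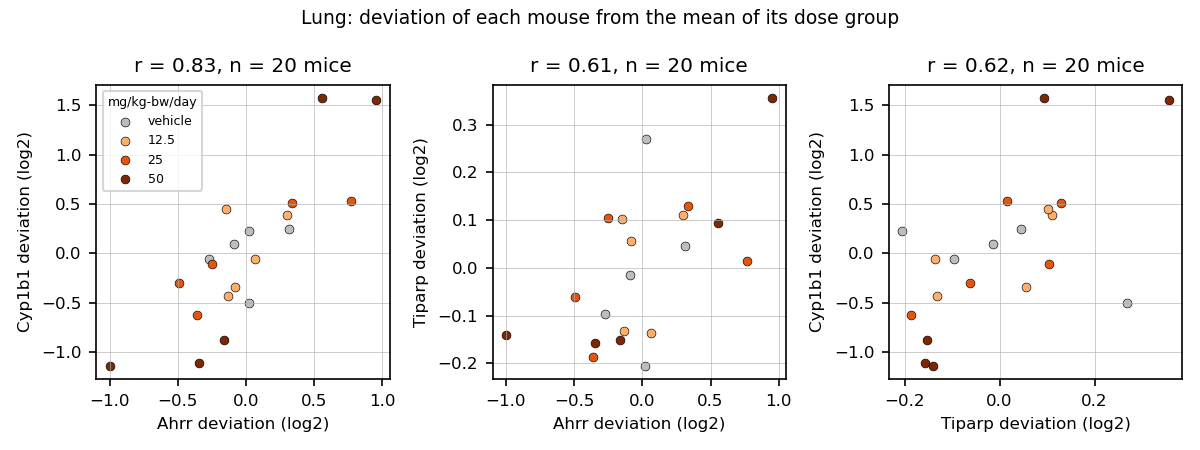
Deviation of each lung sample from the mean of its dose group, in log2 units on both axes, for Ahrr and Cyp1b1, Ahrr and Tiparp, and Tiparp and Cyp1b1. Each point is 1 of 20 mice, coloured by dose, and the 3 Pearson r are 0.83, 0.61 and 0.62; the widest deviations belong to mice at 50 mg/kg-bw/day.

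Cyp1b1, a target of AhR that oxidises aromatic hydrocarbons, rose by 3.64 on the log2 scale in lung at 50 mg/kg-bw/day (SE 0.45, limma adjusted p = 0.00145), and Cyp1a1, the classical target, differed by 4.24 (SE 0.98, limma adjusted p = 0.0837), past the threshold with slide as a block or without mouse 11 of the middle dose. Over the 20 lung arrays, doses included, Cyp1b1 was also the gene whose pattern was most like that of Ahrr among 15321 genes (r = 0.954), followed by Herc1 (0.849) and Lefty1 (0.841), with Cyp1a1 at rank 45 (0.724). These values describe arrays that share the dose difference. The genes most like Tiparp were Nfe2l2, the regulator of the antioxidant response (0.801), Ucp3 (0.757) and Tmem198 (0.755), while Ahr against Tiparp gave −0.508. Raver2, S1pr4 and Mmp11 were most like Ahr (0.779, 0.777 and 0.741), and Cnot1, Phf10 and Csnk1g1 most like Arnt (0.766, 0.748 and 0.745).

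Around the members, few pathway genes passed the thresholds at 50 mg/kg-bw/day. Among the chaperones that hold AhR in the cytoplasm, Hsp90aa1 differed by −0.67 in lung (limma adjusted p = 0.37), Hsp90ab1 by −0.36 (0.632) and the co-chaperone Ptges3 by −0.34 (0.228), against a median of 0.00 over all probes. None of these passed, and with slide as a block 1 of them did, the lower Hsp90aa1, the only chaperone with a change beyond the fold limit. Of 9 AhR target enzymes 1, Cyp1b1, passed in lung, as did 0.079% of all probes. Of the 9, 3 had an unadjusted p under 0.05, as did 8.8% of all probes, and the median was 0.10. Nqo1, a quinone reductase, differed by 0.46 (limma adjusted p = 0.492), and Cyp1a2, the liver member of the family, was well above background on 1 of 5 lung arrays in either group. Among 7 relatives of Tiparp, Parp10 had a limma adjusted p of 0.0444 in lung with a difference of 0.36, below the fold limit, and the list median was 0.07. Of 12 other proteins of the ARNT family type, which share the bHLH-PAS fold, none passed, and the clock factor Bmal1 had the widest difference, −0.73 (limma adjusted p = 0.297). None of 11 coregulators passed, where the cell cycle regulator Rb1 was widest at 0.35 (limma adjusted p = 0.134). In liver and forestomach 0 genes of the 5 lists passed at 50 mg/kg-bw/day, and 0 probes of all passed in either tissue at any dose. At the highest dose, 2164 probes in forestomach (3.89% of all) and 3827 in liver (6.87%) had an unadjusted p under 0.05. The widest differences within a list included, in liver, those of Aldh3a1, an aldehyde dehydrogenase (−0.50), the clock factor Clock (−0.41), Zc3hav1 (−0.38) and Med1 (−0.36), and in forestomach those of Cyp1a1 (1.03), which was not well above background in any vehicle mouse, Hsp90aa1 (−0.79) and Parp10 (0.39).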

How the data were processed

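Per the file headers, the authors made the intensity values by scanning the arrays with Agilent Feature Extraction, version 10.7.3.1 for lung and forestomach and 11.0.1.1 for liver, and the log10 ratio of that software is background-subtracted and dye-normalized. The authors also deposited log2 ratios, per the methods from LOWESS-normalized median signals. Their Pearson r with the loess-normalized log2 ratios described next was 0.9958 to 0.9994 in lung and forestomach. In liver it was −0.0068 to 0.0067, and there the deposited values were not used. Here log2(Cy5/Cy3) of the median signals, without background subtraction, had its dye trend removed per array (loess), and spots of a probe were averaged without outlier spots, with limma 3.58.1 in R 4.3.3 (statmod 1.5.0, data.table version 1.17.8). The limma fit stands in for MAANOVA, which the authors used, and p was adjusted by Benjamini and Hochberg over 55681 probes per comparison. The 2 fits did not give the same counts. With the same limits the study listed differentially expressed genes for IP in lung, liver and forestomach at the highest dose, more in each tissue than passed here. Fits were tested on simulated data. Precision is limited by 4 or 5 mice per group.

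The members and lists were chosen with earlier results of these data known. Named were the members, 4 AhR targets, chaperones of AhR (1 listed gene is not reported here), list genes past both thresholds or widest in their list, and the 3 genes most like each member over the 20 lung arrays, among genes above background on at least 0.5 of them. A gene is its probe with the highest mean Cy5. Mouse numbers in the labels mark the same animal across tissues. Deviations of the same mouse had a median r of 0.195 for lung and forestomach, which share slides, 0.0954 for lung and liver and 0.0453 for forestomach and liver, over 19 mice. Alternatives were normexp with an offset of 50, median-centring, Cy5 alone after Aquantile, the scanner log ratio, the authors' values, keeping outlier spots, leaving out dim probes, the mean over probes, slide or mouse as a block, 2 groups fitted alone, trend and robust, array weights, each mouse left out and, chosen after seeing the data, a joint fit of vehicle and 50 mg/kg-bw/day alone and leaving out the 11 arrays that stood apart.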

Additional observations from a re-analysis of the deposited data

Results flagged for a closer look

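The effect of 50 mg/kg-bw/day on Ahrr differed between tissues: lung minus liver was 2.22 and lung minus forestomach 2.10 on the log2 scale in the joint limma fit, by the test of the difference itself. Among 60 groups of 4 or 5 mice examined for a sample far from the others, 3 held such a value, and chance gives about 1 in 20. Ahr in forestomach at 50 mg/kg-bw/day was −0.68 in mouse 16 and −0.25 to −0.17 in the other mice. Arnt in liver at 50 mg/kg-bw/day was −0.40 in mouse 20 and 0.06 to 0.24 in the others, and mouse 20 is 1 of the 5 liver arrays with a high share of probes above background. Arnt2 in liver at 25 mg/kg-bw/day was −0.78 in mouse 15, another of these arrays, and −0.58 to −0.50 in the others, where the probe was not well above background.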

How the results depend on the processing

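The lung Ahrr rise at 50 mg/kg-bw/day passed both thresholds in all alternatives (1.42 to 4.10) and without any 1 mouse (2.26 to 2.75, and 2.48 without vehicle mouse 4). With slide as a block, or without mouse 17 or 20, 1 member passed in lung at 25 mg/kg-bw/day (range without each mouse 0 to 1). In vehicle mice 1 to 3 members passed for lung against liver, 2 to 4 for lung against forestomach and 1 to 3 for forestomach against liver over the alternatives, the lowest, 1, with the mean over probes in both liver comparisons and also with median-centring in the last. The scanner ratio turned vehicle Ahrr in lung minus liver to 1.12, which passed, and vehicle Ahrr in forestomach minus liver passed with it (3.04) and with dim probes left out (0.60). With the scanner log ratio 0 members passed for the effect in lung minus liver. Mouse as a replicate block made 1 further result pass, vehicle Ahrr in forestomach minus liver (0.60), and changed no other call. With slide means removed the residual r was 0.66 for Ahrr and Cyp1a1 and 0.51 for Tiparp and Cyp1a1, and without each mouse it was 0.43 to 0.67 for Ahrr and Tiparp and 0.44 to 0.79 for Tiparp and Cyp1b1. Over all probes, 44 passed in lung at 50 mg/kg-bw/day, against 55 with normexp, 16 with Cy5 alone, 5 with median-centring and 3 with the scanner ratio, the cause of which was not tested.

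Other differences that had not passed turned sign, and did not pass there either. With median-centring, lung Tiparp was 0.090 at 12.5 and 0.21 at 25, Ahr 0.22 in lung and 0.33 in liver and forestomach Tiparp 0.36 at 50 mg/kg-bw/day. Vehicle Ahrr in lung minus liver was 0.19, vehicle Arnt in forestomach minus liver 0.094, and the effect differences were −0.11 for Ahr in lung minus liver, −0.045 for Tiparp in lung minus forestomach and −0.13 for Arnt in forestomach minus liver. With Cy5 alone, lung Tiparp was 0.0082 at 12.5 and 0.047 at 25, forestomach Ahr −0.0088, vehicle Arnt in forestomach minus liver 0.18, and the effect differences 0.0020 for Ahr and 0.0045 for Arnt in lung minus forestomach and −0.0061 for Arnt in forestomach minus liver. With the scanner ratio, lung Tiparp was 0.0042 at 25, lung Ahr 0.011, lung Arnt −0.0080 and forestomach Ahr −0.015 at 50, the Ahr effect in lung minus forestomach 0.026 and the Ahrr effect in forestomach minus liver −1.74. The mean over probes gave −0.12 for liver Arnt, −0.052 for forestomach Ahr, 0.13 for the Arnt effect in lung minus liver and 0.046 for the Ahr effect in lung minus forestomach. Forestomach Ahr was −0.015 with the authors' values, −0.033 with slide as a block and −0.016 with array weights. Without the arrays that stood apart, lung Arnt was −0.0080, forestomach Ahr −0.018, and the effect differences −0.021 for Ahr in lung minus liver, −0.090 for Arnt and −0.0027 for Ahrr in forestomach minus liver. Without each mouse, lung Tiparp ranged from −0.083 to 0.035 at 25 and −0.016 to 0.14 at 50, lung Ahr from −0.11 to 0.063, forestomach Ahr from −0.034 to 0.095, forestomach Tiparp from −0.090 to 0.045, and the lung minus forestomach effects from −0.14 to 0.076 for Ahr and −0.0067 to 0.20 for Tiparp. The cause of these turns was not tested. Arnt2, liver Ahrr and the second probes of Ahr and Ahrr were limited by signal over background.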
